A study of Mus musculus with 12 samples.

Results

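Prostaglandins are lipid signals made from arachidonic acid, and 10 genes of their synthesis, reception and removal were followed in mouse collecting duct cells that had or lacked NFAT5. The genes were chosen by name: Pla2g4a, Ptgs1, Ptgs2, Ptges, Ptges2, Ptges3, Ptger1, Ptger4, Hpgd and Slco2a1. All 10 were found among the 52015 genes with a usable value. The cells were mpkCCD, an immortalised line derived from mouse cortical collecting duct. Scr cells carried a scramble, non-targeting guide RNA, and Nfat5-KO cells carried a CRISPR/Cas9 deletion of Nfat5, the transcription factor that drives osmoprotective genes in hypertonic medium. Each genotype was kept for 5 days either in isotonic medium of 300 mosmol/kg (Scr_300, Nfat5-KO_300) or in medium of 600 mosmol/kg, made with 100 mM NaCl and 100 mM urea added (Scr_600, Nfat5-KO_600). RNA was sequenced from 2 libraries in each Scr group and 4 in each Nfat5-KO group, and the knockout libraries came from 2 clones, N1 and N3, which were averaged together.

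Phospholipase A2 frees arachidonic acid from membranes, the cyclooxygenases COX-1 and COX-2 convert it to prostaglandin H2, and terminal synthases turn that into prostaglandin E2 and its relatives. Prostaglandin E2 acts on the receptors EP1 to EP4, and its signal ends when the transporter PGT takes it up and 15-hydroxyprostaglandin dehydrogenase oxidises it. In the collecting duct prostaglandin E2 is known to oppose vasopressin-driven water transport and to limit salt reabsorption.

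The deposited table gives 1 FPKM value (fragments scaled to exon length and to the total of the library) for each gene and group. A group value has no error of its own. In the Scr groups, however, the value of most genes could be split into whole reads of the 2 libraries behind it, because 1 set of whole numbers alone gave the deposited value. This split was made after the data were seen. The libraries cannot be matched to their labels, so they are called the deeper and the shallower library. The totals to which the libraries had been scaled lay between 29344029 and 37506799 fragments. For Nfat5-KO groups the split could be made only where a gene had few reads, so the spread between the 4 knockout libraries, and between the 2 clones, is unknown for every member above 0.5 FPKM. Differences between groups are given as the log2 ratio of FPKM + 0.1, with no p-value, over genes with at least 0.5 FPKM in either group, a scale that understates ratios of low genes. In these bulk samples fewer cells of a type and less RNA per cell cannot be told apart.

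The epithelial identity of the cells held in part. Krt18 was at 469 to 738 FPKM and Cdh1 at 72.7 to 103 FPKM in the 4 groups, whereas the principal cell genes Aqp2 and Avpr2 did not pass 0.245 and 0.0193 FPKM. Other principal cell genes were counted, with Aqp3 at 2.07 to 2.93 FPKM and Scnn1a at 1.31 to 7.03 FPKM. Of 17 listed genes of principal cells and collecting duct epithelium, 10 reached 1 FPKM in a group. The 7 fibroblast markers summed to 0.0521 to 0.249 FPKM, the 3 markers of thick ascending limb and macula densa to 0.0449 to 0.0709 FPKM and the 5 macrophage and leukocyte markers to 2.99 to 5.90 FPKM. In that last list Ptprc was at most 0.0224 FPKM, Cd68 was at 2.62, 1.84, 1.80 and 1.41 FPKM and Csf1r at 3.27, 3.20, 1.17 and 1.65 FPKM in Scr_300, Scr_600, Nfat5-KO_300 and Nfat5-KO_600. The 3 proximal tubule markers summed to 0.0486, 0.0468, 0.362 and 1.23 FPKM in the same order, with Lrp2 at 1.07 FPKM in Nfat5-KO_600. Gata3 also differed between the genotypes, with 3.41 and 4.33 FPKM in Scr_300 and Scr_600 and 11.8 and 30.0 FPKM in Nfat5-KO_300 and Nfat5-KO_600. The part of these differences between genotypes in the results below was not tested. Nfat5 RNA was at 5.61 and 7.93 FPKM in Scr_300 and Scr_600 and at 3.47 and 6.88 FPKM in the knockout groups. The labels do not say which bases were deleted, so this level does not check the genotype. Across 5 known hypertonicity genes the log2 ratio of 600 against 300 mosmol/kg ran from 0.88 to 4.39 for Scr and from -0.30 to 1.43 for Nfat5-KO.

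Of the 10 prostaglandin genes, 7 were compared in each of the 4 comparisons. Ptges, Ptger1 and Hpgd stayed under 0.5 FPKM in every group. In Scr cells 2 of the 7 (Ptgs2 and Slco2a1) were at least 2-fold higher in hypertonic medium and none was 2-fold lower, where 7.67% of the 12929 genes compared were at least 2-fold apart in either direction. In Nfat5-KO cells only Slco2a1 was at least 2-fold higher in hypertonic medium, against a background of 10.4% of 12982 genes. Between genotypes in isotonic medium only Ptgs2 was at least 2-fold apart, with 4.17% of 12704 genes as the background, and in hypertonic medium none of the 7 was, with 7.44% of 13063 genes. The median log2 ratio of the 7 members was 0.17, -0.33, 0.16 and -0.16 in these 4 comparisons in turn, beside -0.04, -0.04, 0.00 and -0.02 over all genes compared. The background was sensitive to scaling in the knockout. When each group was set to the same summed FPKM, the median gene moved from -0.04 to 0.20 in Nfat5-KO_600 against Nfat5-KO_300 and from -0.02 to 0.11 in Nfat5-KO_600 against Scr_600, and in the former the share of 2-fold genes that were higher went from 60.3% to 81.7%.

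**Figure D1:**
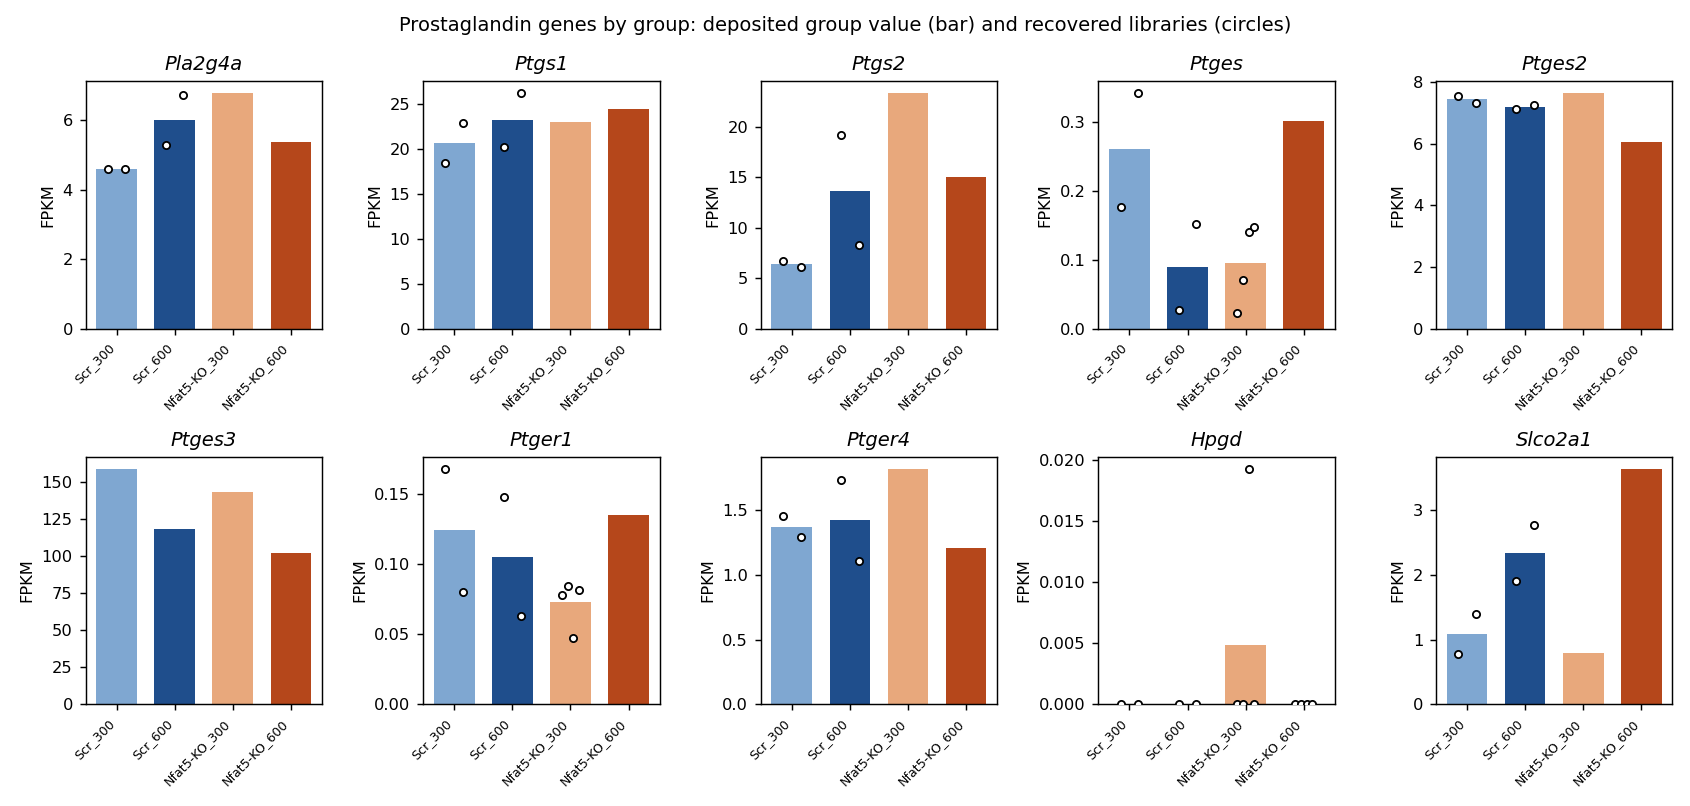
FPKM (vertical axes, linear, each panel with its own scale) of the 10 prostaglandin genes in the 4 groups. Bars are the deposited group values, and circles are libraries whose whole reads could be recovered. Ptgs2 is lowest in Scr_300 (6.41 FPKM) and highest in Nfat5-KO_300 (23.4 FPKM), and its 2 Scr_600 libraries lie apart at 19.2 and 8.34 FPKM.

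The Scr libraries allowed a test of hypertonic medium in Scr cells, also added after the data were seen. A limma fit over 11148 genes, with 2 libraries against 2, called 149 genes at an adjusted p under 0.05, which is 1.34% of those tested. None of the 6 prostaglandin genes in the fit passed. At an unadjusted p under 0.05, 2 of the 6 (Ptgs2 and Slco2a1) did, beside 2422 of all genes. Ptges3 could not be split into libraries and was not in the fit. The study describes its libraries as biological replicates. Its authors tested the same contrast with DESeq2 on read counts and report far more differentially expressed genes than the 149 called here. They also tested the comparisons that involve knockout cells. Their results for the prostaglandin genes are not given here. A gene that did not pass in the limma fit is therefore not shown to be unchanged.

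Pla2g4a encodes cytosolic phospholipase A2 alpha, the enzyme that releases arachidonic acid on a calcium signal. It lies on chromosome 1 from 149829618 to 149961290 on the minus strand (GRCm38, as are all positions here), and 139 kb separate it from Ptgs2. Its level was 4.59 FPKM in Scr_300, 6.01 in Scr_600, 6.78 in Nfat5-KO_300 and 5.38 in Nfat5-KO_600. The 2 Scr_300 libraries gave 4.58 and 4.60 FPKM (1051 and 941 reads), and the Scr_600 libraries gave 5.28 and 6.73 FPKM (1254 and 1511 reads). The log2 ratio of hypertonic to isotonic medium was 0.38 in Scr cells on the group values, and in the limma fit it was 0.37 with a standard error of 0.16 and an adjusted p of 0.266. In Nfat5-KO cells the same ratio was -0.33. Pla2g4a thus had a positive ratio in one genotype and a negative one in the other, with a difference of -0.71. With equal summed FPKM the knockout ratio stayed negative, at -0.09. A difference at least as large was seen in 13.2% of 13414 genes.

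Ptgs1 encodes COX-1, the constitutive cyclooxygenase, and was the steadiest of the abundant members. On chromosome 2 from 36230426 to 36252272 (plus strand), it was at 20.6 FPKM in Scr_300, 23.2 in Scr_600, 23.0 in Nfat5-KO_300 and 24.4 in Nfat5-KO_600. Its 4 log2 ratios lay between 0.07 and 0.17. Within Scr cells the libraries differed more than the groups did: the isotonic libraries were at 18.4 and 22.8 FPKM and the hypertonic ones at 20.2 and 26.2 FPKM, which overlap. The limma ratio was 0.17 with a standard error of 0.18 (adjusted p = 0.621).

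Ptgs2 encodes COX-2, the inducible cyclooxygenase, whose gene lies on chromosome 1 from 150100031 to 150108227 on the plus strand. Its group levels were 6.41 FPKM in Scr_300, 13.7 in Scr_600, 23.4 in Nfat5-KO_300 and 15.0 in Nfat5-KO_600. Scr_300 was the lowest of the 4 groups, and Nfat5-KO_300 the highest. In isotonic medium Nfat5-KO cells were 3.66-fold above Scr cells, a log2 ratio of 1.85. Only 136 of 12704 genes (1.07%) had a ratio at least as large in either direction. In hypertonic medium the log2 ratio between genotypes was 0.12, and 1 library set its direction: it was 0.84 without the deeper Scr_600 library and -0.35 without the shallower one.

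Hypertonic medium went with opposite signs of the Ptgs2 ratio in the 2 genotypes. The log2 ratio of 600 against 300 mosmol/kg was 1.09 (2.14-fold higher) with Scr and -0.64 (1.56-fold lower) with Nfat5-KO. The difference of -1.73 between them was matched or passed by 2.08% of 13414 genes. It has no test, since the knockout libraries could not be separated. Opposite signs in the 2 genotypes were themselves common, at 26.6% of the 13414 genes, and were seen in 3 of the 7 members (Ptgs2, Pla2g4a and Ptger4). For Ptger4 the sign was not stable, since its Scr ratio of 0.05 became -0.28 without the deeper Scr_600 library and -0.03 without the shallower Scr_300 library.

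The Scr libraries show how firmly the Scr side of this stands. In Scr_300 the deeper library held 1108 Ptgs2 reads (6.73 FPKM) and the shallower 892 (6.09 FPKM). In Scr_600 the deeper library held 3258 reads (19.2 FPKM) and the shallower 1342 (8.34 FPKM). The hypertonic pair was 2.30-fold apart. Only 3.14% of 10800 genes were as far apart between the Scr_600 libraries. The limma ratio was 0.97 with a standard error of 0.38 and an adjusted p of 0.222. Without the deeper Scr_600 library the group ratio dropped to 0.37, and the difference between the genotypes to -1.02. Leaving out either Scr_300 library kept the Nfat5-KO_300 against Scr_300 ratio at least 2-fold.

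**Figure D2:**
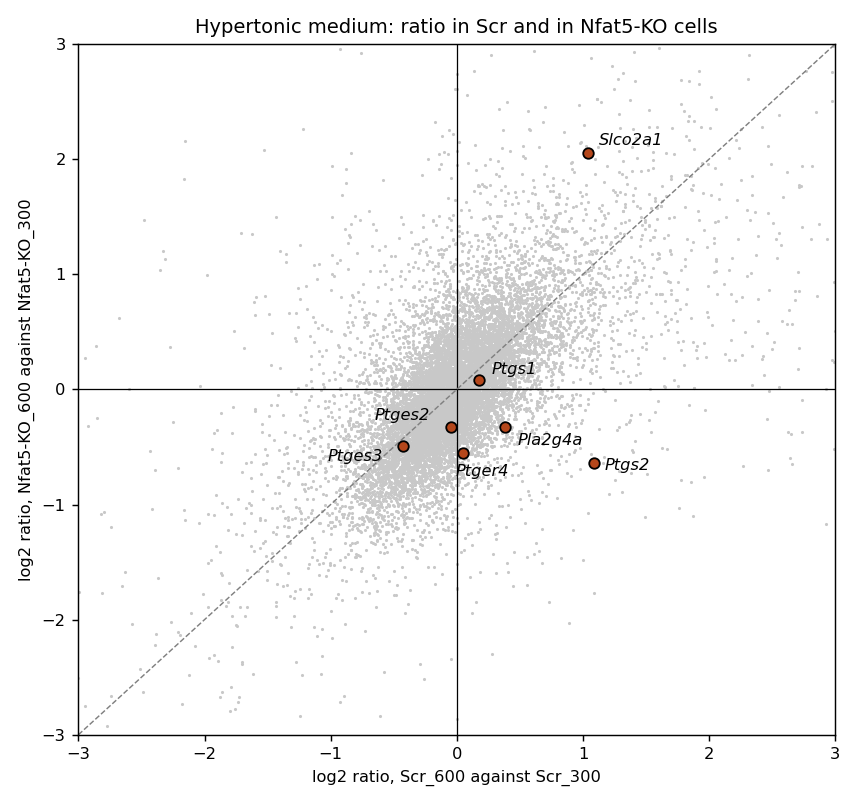
Each point is a gene with at least 0.5 FPKM in a group (13316 drawn, 98 beyond the axes). The horizontal axis is the log2 ratio of Scr_600 against Scr_300 and the vertical axis that of Nfat5-KO_600 against Nfat5-KO_300, and the dashed line marks equal ratios. Ptgs2 (1.09, -0.64) lies below the line, Slco2a1 (1.04, 2.06) above it and Ptgs1 (0.17, 0.09) close to it.

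Since FPKM is scaled to length, the 2 cyclooxygenases can be compared with each other. The FPKM ratio of Ptgs2 to Ptgs1 was 0.311 in Scr_300, 0.592 in Scr_600, 1.02 in Nfat5-KO_300 and 0.615 in Nfat5-KO_600. In the Scr libraries it was 0.366 (deeper) and 0.267 (shallower) in isotonic medium, and 0.947 (deeper) and 0.318 (shallower) in hypertonic medium. The Scr_600 value thus rests on which library is taken, and the deeper one lay near the isotonic knockout value. The sum of both was 27.0, 37.0, 46.4 and 39.4 FPKM in the same order.

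The Ptgs2 start is shown because this is the member with the largest ratio between genotypes. The 250 bases before the RefSeq start (GRCm38.p6, chr1:150099781-150100030, plus strand) are given with each GGAAA, the core bound by NFAT proteins, in capitals. They include the first exon bases of Ptgs2os, a divergent antisense RNA whose start is separated from that of Ptgs2 by 67 bases. A second stretch just after the start (chr1:150100033-150100062) has the cyclic AMP response element ACGTCA and the E-box CACGTG in capitals, which share 2 bases and read as 1 run.
Ptgs2 upstream: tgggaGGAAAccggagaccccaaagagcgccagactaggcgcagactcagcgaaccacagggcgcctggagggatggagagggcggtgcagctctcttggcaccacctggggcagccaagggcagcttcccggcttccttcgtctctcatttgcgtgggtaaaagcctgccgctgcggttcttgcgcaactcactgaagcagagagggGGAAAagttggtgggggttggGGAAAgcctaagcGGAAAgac
Ptgs2 after the start: agtcaccactACGTCACGTGgagtccgctt

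In the window from 250 bases before to 50 after the start, Ptgs2 held GGAAA on its plus strand 4 times, but not TGGAAA, the longer core of NFAT5 sites. Counted on both strands, GGAAA or its reverse TTTCC occurred at least once in 61.3% of all 32851 RefSeq windows of this length. TGGAAA or TTTCCA, which contains the shorter core, occurred at least once in 21.4%. The share of windows with GGAAA 4 times was not counted. Both ACGTCA (or TGACGT) and CACGTG occurred in 0.77% of them. Of the 10 windows of members (Pla2g4a has 2 and Ptger1 was not matched), 3 held TGGAAA on either strand: those of Ptges2, Ptges3 and Ptger4. None of those 3 genes reached a 2-fold ratio in any comparison. These matches describe letters only. The antisense Ptgs2os had 0.228, 0.308, 0.527 and 0.607 FPKM in Scr_300, Scr_600, Nfat5-KO_300 and Nfat5-KO_600, a log2 ratio between genotypes of 0.94 in isotonic and 0.79 in hypertonic medium. Ptgs2os and Ptgs2 share no exon base.

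The 3 prostaglandin E synthases differed widely in level. Ptges encodes mPGES-1, the inducible synthase usually coupled to COX-2, and was barely counted. It had 25 and 43 reads in the Scr_300 libraries, 4 and 21 in the Scr_600 libraries and 3, 9, 17 and 17 in the Nfat5-KO_300 libraries. The group values were 0.26, 0.0897, 0.0953 and 0.301 FPKM in Scr_300, Scr_600, Nfat5-KO_300 and Nfat5-KO_600. No resolved library passed 0.342 FPKM, and libraries of 1 group differed 1.93-fold in Scr_300, 5.55-fold in Scr_600 and 6.34-fold in Nfat5-KO_300, so no order of the groups was read from them.

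Ptges2 encodes the membrane-associated synthase mPGES-2 and lies on chromosome 2 from 32395896 to 32405772 on the plus strand. It was at 7.44 FPKM in Scr_300, 7.19 in Scr_600, 7.65 in Nfat5-KO_300 and 6.07 in Nfat5-KO_600. The 4 Scr libraries lay between 7.13 and 7.55 FPKM, and the log2 ratio in the limma fit was -0.05 with a standard error of 0.12 (adjusted p = 0.843), and the group ratio became 0.08 with equal summed FPKM. Nfat5-KO_600 lay below the range of the Scr libraries, with a log2 ratio of -0.33 against Nfat5-KO_300 (-0.09 with equal summed FPKM).

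Ptges3 encodes cytosolic prostaglandin E synthase, also known as the HSP90 co-chaperone p23, and was the most abundant member in each group. On chromosome 10 from 128058954 to 128077272 (plus strand), it was at 159 FPKM in Scr_300, 118 in Scr_600, 143 in Nfat5-KO_300 and 102 in Nfat5-KO_600. Both hypertonic groups were below both isotonic groups, with log2 ratios of -0.42 for Scr and -0.49 for Nfat5-KO. In those comparisons 30.8% and 35.6% of genes had ratios as large. With each group set to the same summed FPKM, both ratios became smaller but stayed negative. The processed pseudogene Ptges3-ps, counted at 123 to 177 FPKM, followed the same order, and reads of near-identical copies may be divided between the 2 entries, so the level of Ptges3 is uncertain.

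**Figure D3:**
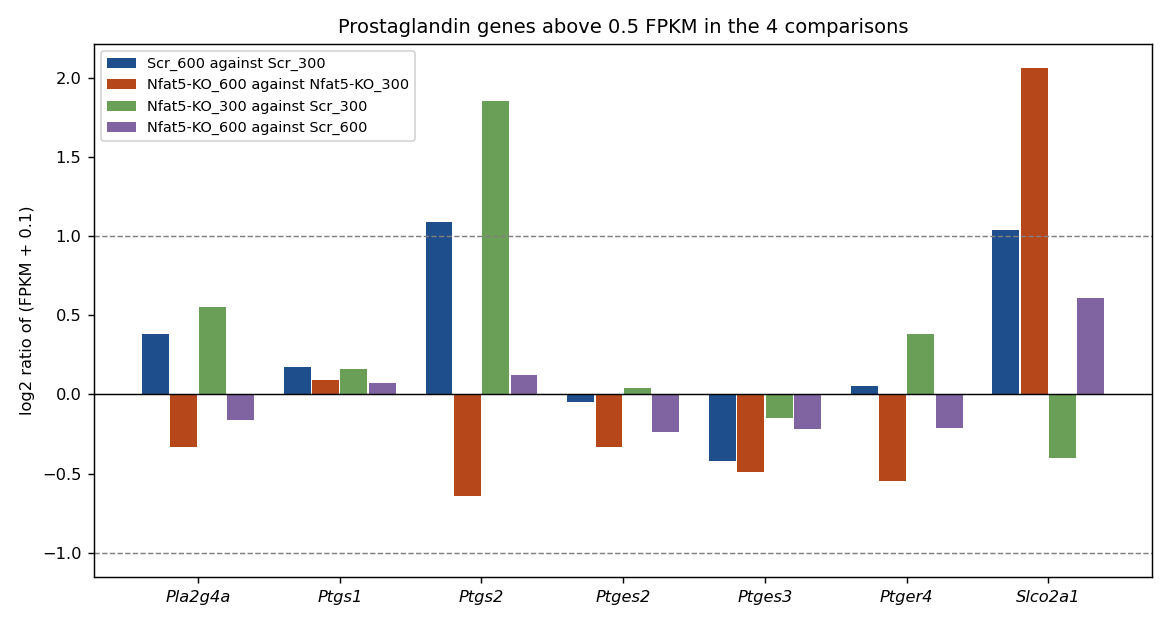
Log2 ratios of FPKM + 0.1 (vertical axis) for the 7 prostaglandin genes above 0.5 FPKM in the 4 comparisons, with dashed lines at a 2-fold ratio. Ptgs2 passes the lines in Scr_600 against Scr_300 (1.09) and Nfat5-KO_300 against Scr_300 (1.85), and Slco2a1 in both hypertonic comparisons (1.04 and 2.06).

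Among the prostaglandin E2 receptors, only EP4 was counted at an appreciable level. Ptger4, which encodes this Gs-coupled receptor (chromosome 15, 5206661 to 5244187, minus strand), was at 1.37 FPKM in Scr_300, 1.42 in Scr_600, 1.82 in Nfat5-KO_300 and 1.21 in Nfat5-KO_600. Its Scr_300 libraries were at 1.45 and 1.29 FPKM and its Scr_600 libraries at 1.73 and 1.11 FPKM, so the hypertonic pair spanned the isotonic one. The limma ratio was 0.02 with a standard error of 0.28 (adjusted p = 0.977). In Nfat5-KO cells the log2 ratio of hypertonic to isotonic medium was -0.55. Ptger4 was highest in Nfat5-KO_300, as were Ptgs2, Pla2g4a and Ptges2 among the members above 0.5 FPKM. For Ptges2 the lead was small, at 7.65 FPKM beside 7.44 in Scr_300, where the deeper library reached 7.55. The share of all genes highest in that group was not counted. Of the Ptger4 exon bases, 15.3% are shared with the processed pseudogene Gm15937 on the opposite strand.

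Ptger1 encodes the calcium-coupled receptor EP1 and lies on chromosome 8 from 83666678 to 83672753. It had 33 and 14 reads in the Scr_300 libraries, 30 and 12 in the Scr_600 libraries and 14, 15, 8 and 13 in the Nfat5-KO_300 libraries, and was at most 0.135 FPKM in any group. The libraries of the groups overlapped. The receptors EP2 (Ptger2), DP1 (Ptgdr) and FP (Ptgfr) were listed at 0 in all 4 groups. For Ptger2 a count of 0 allows at most 0.00851 FPKM in Scr_300 and 0.0041 FPKM in Nfat5-KO_600, taking 3 reads over a group as the floor and counting error only. EP3 (Ptger3) had no read in the 4 Scr libraries, 2 in each of 2 Nfat5-KO_300 libraries and 1 in a Nfat5-KO_600 library.

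Removal of prostaglandins depends on uptake by PGT and oxidation by 15-hydroxyprostaglandin dehydrogenase. Hpgd, which encodes the dehydrogenase, had 0 reads in all Scr and Nfat5-KO_600 libraries and 1 read in 1 of the 4 Nfat5-KO_300 libraries. The floor of 3 reads corresponds to 0.0262 FPKM in Scr_300, 0.0247 in Scr_600, 0.0142 in Nfat5-KO_300 and 0.0127 in Nfat5-KO_600. Expression of Hpgd was not detectable at this depth.

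Slco2a1, the gene of PGT, was higher in hypertonic medium in both genotypes. It lies on chromosome 9 from 102988712 to 103096002 on the plus strand. Its level was 1.09 FPKM in Scr_300, 2.34 in Scr_600, 0.799 in Nfat5-KO_300 and 3.64 in Nfat5-KO_600. The hypertonic group was 2.16-fold above the isotonic one with Scr and 4.56-fold with Nfat5-KO, log2 ratios of 1.04 and 2.06. The Scr ratio was under 2-fold without the deeper Scr_300 library (0.71) and without the shallower Scr_600 library (0.76). Ratios at least as large were seen in 7.20% and 1.45% of the genes compared.

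The Slco2a1 values of the 2 Scr groups could be split into libraries. The isotonic libraries held 379 and 604 reads (0.779 and 1.39 FPKM), and the hypertonic ones 962 and 1319 (1.91 and 2.77 FPKM). The limma ratio was 1.07 with a standard error of 0.34, and the adjusted p of 0.172 did not pass. The ratio was larger in Nfat5-KO cells by 1.02 on the log2 scale, which 6.74% of 13414 genes matched or passed, and with 1 Scr library left out this difference ran from 0.58 to 1.34. Between genotypes the log2 ratio was -0.40 in isotonic medium, where it was -0.73 without the deeper Scr_300 library and 0.03 without the shallower one, so that its direction rests on 1 library. In hypertonic medium it was 0.61, and 0.38 or 0.90 with 1 Scr_600 library left out.

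Slco2a1 is shown at its RefSeq start (GRCm38.p6, chr9:103008446-103008475, plus strand) because it was the member with the largest hypertonic ratio, and the capitals mark a TATA box.
Slco2a1 start: atcgctgccactTATAAAaacttctgggcg
The motif TATAAA begins 29 bases before this start. TATAAA or TTTATA was found in 13.6% of all windows and in those of 3 members, Slco2a1, Hpgd and Pla2g4a. The annotation also has Slco2a1 transcripts that begin farther upstream.

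Only Ptgs2 and Slco2a1 had at least 1 FPKM and a log2 range of 1 or more over the 4 groups, and for each the 3 genes of nearest pattern were sought among 11921 genes. With Euclidean distance of the centred log2 values over the 4 groups, those nearest to Ptgs2 were M6pr-ps (0.48), Dusp2 (0.55) and Igf2bp1 (0.61). Those nearest to Slco2a1 were D830044I16Rik (0.11), Rasl10a (0.15) and Mylk (0.18). With only 4 group values, many genes can lie close by.

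Of 53 related eicosanoid genes listed by role, 51 had a match, and 24 to 26 of them were compared in each comparison. In Scr_600 against Scr_300, 2 were at least 2-fold higher and 2 lower. The counts were 3 higher and 1 lower in Nfat5-KO_600 against Nfat5-KO_300, 1 and 1 in Nfat5-KO_300 against Scr_300, and 2 and 3 in Nfat5-KO_600 against Scr_600. These were out of 24, 24, 25 and 26 related genes compared, in that order. Over all genes compared, 7.67%, 10.4%, 4.17% and 7.44% were at least 2-fold apart in either direction. The median log2 ratios of the related genes were 0.05, 0.02, 0.05 and -0.25 in that order, beside -0.04, -0.04, 0.00 and -0.02 over all genes.

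Among the release genes, 10 of 16 were compared, and Pla2g12a and Anxa1 reached 2-fold. Pla2g12a, a secreted phospholipase A2, was at 8.86 FPKM in Scr_300 and 3.92 in Scr_600. Its libraries gave 8.67 and 9.05 against 3.58 and 4.26 FPKM, and it fell in Scr cells by 1.16 on the log2 scale in the limma fit, with an adjusted p of 0.041. It was the only one of 21 related genes in the fit to pass, and with any 1 library left out its adjusted p lay between 0.109 and 0.233. In Nfat5-KO cells it was at 9.98 and 5.50 FPKM. Anxa1, annexin A1, a protein known to restrain phospholipase A2, was at 242 FPKM in Scr_300, 275 in Scr_600, 128 in Nfat5-KO_300 and 42.6 in Nfat5-KO_600. In hypertonic medium the Scr level was 6.46-fold that of the knockout.

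Among the other terminal synthases and reductases, 5 to 7 of 10 were compared. Akr1b3, aldose reductase, which has prostaglandin F synthase activity and makes sorbitol in hypertonic cells, was at 23.8 FPKM in Scr_300, 175 in Scr_600, 14.5 in Nfat5-KO_300 and 39.2 in Nfat5-KO_600. Its hypertonic ratio was 7.35-fold for Scr and 2.71-fold for Nfat5-KO. Akr1b8, a relative of it, was at 3.69, 10.2, 4.68 and 5.66 FPKM in the same order, and its Scr ratio had an adjusted p of 0.0573 in the limma fit.

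Ptgds and Cbr3 had the largest ratios between genotypes of the related genes. Ptgds, lipocalin-type prostaglandin D synthase, was at 1.86 and 2.98 FPKM in Scr_300 and Scr_600 and at 0.0436 and 0.106 FPKM in Nfat5-KO_300 and Nfat5-KO_600. Its reads were 31 and 169 in the Scr_300 libraries, 268 and 92 in the Scr_600 libraries, 3, 2, 1 and 3 in Nfat5-KO_300 and 0, 0, 16 and 8 in Nfat5-KO_600. Every knockout library was below every Scr library, although the Scr_300 libraries themselves were 6.14-fold apart. Cbr3, a carbonyl reductase that can act on prostaglandin E2, went the other way, with 0.223 and 0.198 FPKM in the Scr groups and 1.16 and 3.05 FPKM in the Nfat5-KO groups.

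The receptors, the removal genes and the leukotriene and lipoxygenase genes had smaller ratios, with 1 exception. None of the 1 or 2 receptors or the 3 removal genes compared reached 2-fold in any comparison. Abcc4, which exports prostaglandins, was the highest removal gene, at 14.7, 26.8, 16.6 and 21.9 FPKM in Scr_300, Scr_600, Nfat5-KO_300 and Nfat5-KO_600. Of 12 leukotriene and lipoxygenase genes 4 were compared, and Ephx1, microsomal epoxide hydrolase, was at 7.74, 3.47, 6.98 and 14.9 FPKM in that order. It was 2.23-fold lower in hypertonic medium in Scr cells (adjusted p = 0.0905 in the limma fit) and 2.14-fold higher in Nfat5-KO cells.

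**Figure D4:**
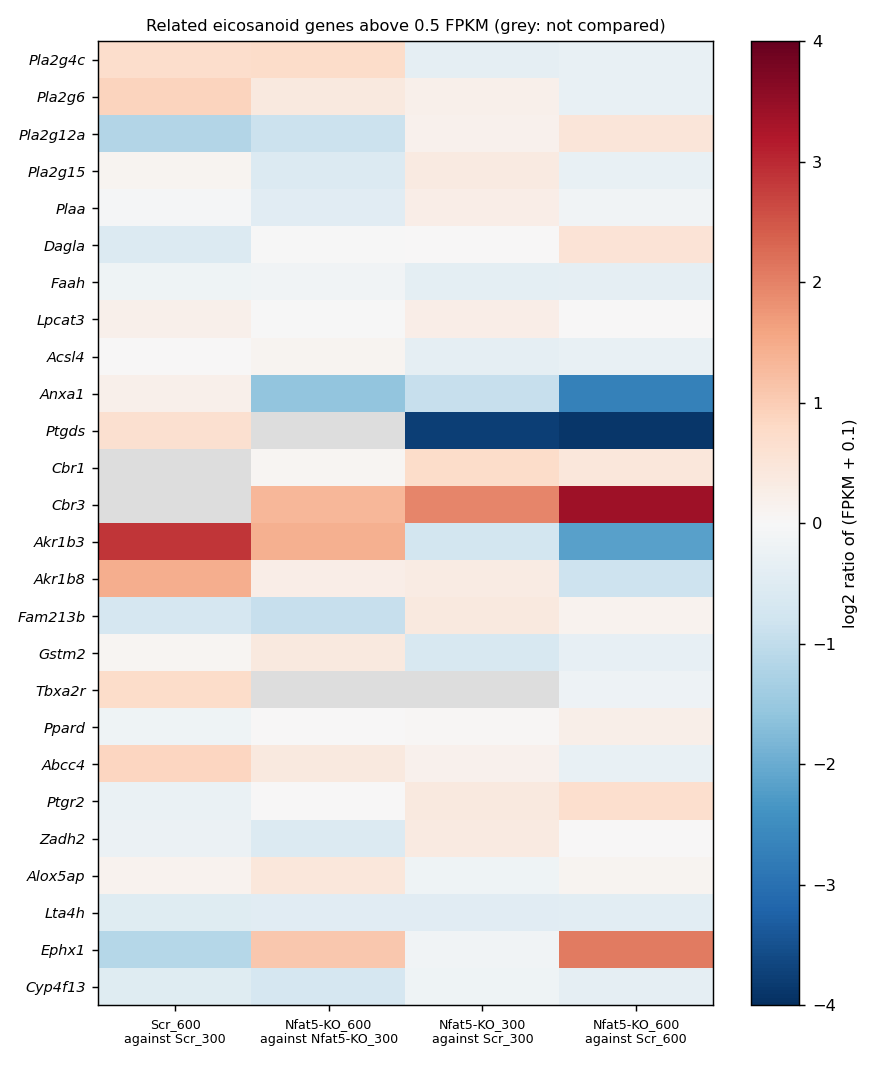
Log2 ratios of FPKM + 0.1 (colour, from -4 to 4) for the 26 related eicosanoid genes (rows, ordered by role) compared in at least 1 of the 4 comparisons (columns), with grey where both groups were under 0.5 FPKM. Ptgds is the darkest blue, at -3.77 and -3.90 between genotypes, and Cbr3 the darkest red, at 3.40 in hypertonic medium.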

How the data were processed

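RNA-seq was carried out on 12 libraries of mpkCCD cells. As the paper and the submitters' processing notes give it, the authors mapped reads to mm10 (GRCm38) with HISAT2 and counted them with HTSeq (versions not given in the sources used here). The deposited values are FPKM, 1 per gene and group. Of 54839 rows, 2436 had no value, 311 were exact duplicates and 37 symbols had several rows and were left out. The members and lists were chosen with earlier results of these data known. Groups were compared by the log2 ratio of FPKM + 0.1 (genes with at least 0.5 FPKM in either group), and a 2-fold ratio was counted. The planned limma test for values per library could not be run on the deposited group values.

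After the data were seen, whole reads per library were recovered with GENCODE M21 exon lengths. A group value was accepted where 1 set of whole reads reproduced it and at most 0.1 sets were expected by chance. That limit was set after values of members were known: 22 of 40 member values were accepted, and the same 22 at a limit of 0.05. At or above 0.5 FPKM, 88.8% of 12216 genes in Scr_300 and 88.1% of 12358 in Scr_600 were resolved. limma 3.58.1 (R 4.3.3), with a trend and Benjamini-Hochberg adjustment, was fitted to these Scr libraries. The recovery and the fit were tested on simulated data. Intervals and floors cover counting error only. Promoter windows came from RefSeq (GRCm38.p6). Related genes were named where a group reached 1 FPKM and a comparison reached 2-fold. Python 3.11.15, numpy 2.4.6, pandas 2.3.3 and matplotlib 3.10.9 were used. Alternatives were other pseudocounts (1 and 0.01), filters, scalings, a 1.5-fold limit and leaving out Scr libraries.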

Additional observations from a re-analysis of the deposited data

Results flagged for a closer look

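Hpgd in Nfat5-KO_300 was marked because 1 of the 4 libraries lay apart from the others: it held 1 read and the other 3 held 0, so the gap to the nearest library was the whole range (a gap over range of 1). A lone read among libraries at 0 always gives this value.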

How the results depend on the processing

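No paired analysis was possible because the deposited table holds 1 value per group and its columns carry no replicate numbers. The knockout libraries could not be left out in turn for members above 0.5 FPKM, so for these nothing here bears on the 2 clones. Low genes whose knockout libraries were recovered differed in evenness. Ptgr1 had 0, 0, 5 and 24 reads in Nfat5-KO_300 and 2, 0, 22 and 21 in Nfat5-KO_600. Ptgdr2 had 10, 8, 9 and 11 reads in Nfat5-KO_300. These libraries cannot be matched to clones. With a pseudocount of 1, members at least 2-fold apart in Scr_600 against Scr_300 went from 2 to 0, since Ptgs2 and Slco2a1 lay close to the limit, and the related genes counted were 2 in Nfat5-KO_600 against Nfat5-KO_300 and 1 in Nfat5-KO_300 against Scr_300. With no filter, Ptges was added in both Nfat5-KO_600 comparisons, giving 2 members against Nfat5-KO_300 and 1 against Scr_600. A 1.5-fold limit, with the filter kept, gave the same 2 counts without Ptges. These were Ptgs2 (-0.64) and Slco2a1 (2.06) against Nfat5-KO_300, and Slco2a1 (0.61) against Scr_600. At 1.5-fold, related genes numbered 10 in Scr_600 against Scr_300, 8 in Nfat5-KO_600 against Nfat5-KO_300 and 6 in Nfat5-KO_300 against Scr_300. Leaving out 1 Scr library at a time, an alternative chosen after seeing the data, gave 1 to 2 members in Scr_600 against Scr_300, and 0 to 12 genes called by limma where 149 were called with all 4 libraries (0 without either Scr_600 library). In these fits a lone library was assumed to vary like the other group, and fewer samples entered. The difference between genotypes in the hypertonic ratio then ran from -2.21 to -1.02 for Ptgs2, from -0.87 to -0.52 for Pla2g4a and from -0.86 to -0.27 for Ptger4, and kept its sign. Of 320 log2 ratios of single genes under these alternatives, 290 moved by less than the spread between Scr libraries and 0 of those at least 2-fold changed sign. Over all genes the 2-fold count in Scr_600 against Scr_300 was 992, and 375 with a pseudocount of 1, 1835 with no filter, 554 with a mean of at least 1 FPKM and 2510 at 1.5-fold. In the same order of settings the other comparisons had 1346 (489, 2211, 845 and 3628) in Nfat5-KO_600 against Nfat5-KO_300, 530 (135, 1228, 280 and 1459) in Nfat5-KO_300 against Scr_300 and 972 (338, 1884, 523 and 2518) in Nfat5-KO_600 against Scr_600.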
